A study of Mus musculus with 3 samples.

Results

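The oligoadenylate synthetase (OAS) family is represented here by 8 mouse genes, Oas1a, Oas1b, Oas1c, Oas1g, Oas2, Oas3, Oasl1 and Oasl2, out of 55536 annotated genes in the tables. They were taken by name, and each symbol matched 1 gene. The list was drawn up with earlier results of these data known. It leaves out Oas1d, Oas1e, Oas1f and Oas1h, 4 OAS1 copies with low levels that are given below. OAS enzymes bind double-stranded RNA, a sign of viral infection, and join ATP into short chains with 2'-5' linkages, called 2-5A. These chains act as a second messenger of the antiviral response, which ends in the cleavage of RNA and slower protein synthesis. In macrophages OAS genes are classical interferon-stimulated genes, transcribed when interferon-activated factors bind an interferon-stimulated response element in their promoters.

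RNA bound to chromatin, a fraction rich in transcripts still being made or processed, was sequenced after depletion of ribosomal RNA. The cells were primary macrophages differentiated from the bone marrow of C57BL/6J mice and harvested after 40 min with Lipid A at 100 ng/ml. Lipid A, the lipid anchor of bacterial lipopolysaccharide, is the ligand of Toll-like receptor 4, whose TRIF branch leads through IRF3 to interferon β. There was 1 group of 3 biological replicates, numbered as in the labels. The RNA input was 1 µg for replicate 1, 250 ng for replicate 2 and 500 ng for replicate 3. The labels state neither the age nor the sex of the mice, and each replicate has its own biosample entry under 1 shared donor entry, so p-values measure the spread between these libraries only. Untreated cells and other times were not analysed here, so the values are levels under Lipid A and say nothing of how far Lipid A changed them.

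Total expected counts, the authors' estimates of reads per gene, were 12699813, 18280033 and 18087091 in replicates 1, 2 and 3. Levels are given as TPM, which scales counts for transcript length and for depth. They were compared with a reference gene, defined in each library as the median over 8765 expressed protein-coding genes of the nuclear genome, which lay at 7.56, 6.64 and 6.56 TPM. The cells carried macrophage transcripts: 7 of 8 macrophage markers were called higher than the reference by limma (Benjamini-Hochberg adjusted p under 0.05), from Cd14, the lipopolysaccharide co-receptor, at 207.6 ± 29.6 TPM (SD, n = 3) down to Fcgr1, an Fc receptor gene that was not called, at 4.92 ± 1.14. All 27 markers of other cell types were called lower, but 14 with a pseudocount of 0.01, since many lie at or near 0. For comparison, 15.1% of all 18411 genes tested were called higher and 52.5% lower. In the alignment-based gene table their summed level was 1.87, 2.47 and 2.06 TPM in replicates 1, 2 and 3, and 12 of them, among them Ly6g, Cd3e and Epcam, were listed at 0 in every library. In the alignment-free table, which counts reads without aligning them, the sum was 30.9, 25.4 and 32.7 TPM, 6 markers were at 0 in every library and 26 of 27 were called lower. Cd3d, a T cell marker listed at 0 in the alignment-based table, made up 17.35, 14.13 and 19.33 TPM of that sum (singled out after its values were seen). The part of other cell types in the results was not tested.

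The 8 genes lie on mouse chromosome 5 in 2 places, in the coordinates of mm10. Oasl2 (chr5:114896936-114912234) and Oasl1 (chr5:114923240-114937915) stand side by side on the plus strand. The other cluster runs from Oas2 (chr5:120730333-120749853, minus strand) through Oas3 (chr5:120753098-120777661, minus), Oas1c (chr5:120800194-120812514, minus), Oas1b (chr5:120812635-120824163, plus) and Oas1g (chr5:120876142-120887613, minus) to Oas1a (chr5:120896256-120907521, minus). The cluster's other OAS1 genes, Oas1d, Oas1e, Oas1f and Oas1h, are treated below as neighbours.

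Stretches of promoter and coding sequence that bear on how the values can be read are shown first. The promoters come from RefSeq (GRCm38.p6), where 6 of the 8 members had a window from 250 bases before to 50 after the start. Each window was searched on both strands for GAAANNGAAA, the core of the interferon-stimulated response element. It was found in 4 of the 6, those of Oas1a, Oas1g, Oas1c and Oas3, and in 3.44% of all 32851 windows of that length. The 120 bases before each of these starts follow, all on the minus strand, with the bases of each match in capitals. Overlapping matches form 1 run of capitals.
Oas1a promoter, chr5:120907526-120907645: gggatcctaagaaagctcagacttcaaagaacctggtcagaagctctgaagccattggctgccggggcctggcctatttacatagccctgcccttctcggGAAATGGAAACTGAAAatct
Oas1g promoter, chr5:120887614-120887733: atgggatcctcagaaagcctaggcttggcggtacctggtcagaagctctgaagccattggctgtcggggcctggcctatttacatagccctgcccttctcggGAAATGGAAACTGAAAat
Oas1c promoter, chr5:120812515-120812634: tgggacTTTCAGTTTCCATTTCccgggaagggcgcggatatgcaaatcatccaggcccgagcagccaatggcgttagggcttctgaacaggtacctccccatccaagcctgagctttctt
Oas3 promoter, chr5:120777660-120777779: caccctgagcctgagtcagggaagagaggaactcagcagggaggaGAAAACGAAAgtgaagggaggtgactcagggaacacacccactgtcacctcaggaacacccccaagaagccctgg
Oas1a and Oas1g carried the same run of 16 bases, 20 to 5 and 18 to 3 bases before their starts. Oas1c and Oas1b are divergent, and the 120 bases shown for Oas1c fill the gap between their annotated starts. There the same 16 bases stood on the opposite strand, facing Oas1b, from 22 to 7 bases before the Oas1b start and from 114 to 99 bases before the Oas1c start. Only 7 of the 32851 windows held this run on either strand, the other 4 belonging to Apol9a and Apol9b. The Oas3 match lay 75 to 66 bases before its start. The windows of Oasl1 and Oasl2 held no match. The NF-κB consensus was found in the windows of Oas1c, Oas3 and Oasl1, against 8.46% of all windows. A match is a description of the letters and does not show that a factor was bound.

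Oas1b is annotated as a polymorphic pseudogene, because the C57BL/6J reference carries a premature stop while other mouse strains encode the full protein. In the reference transcript Oas1b-203, with 376 codons before its annotated end, the first in-frame stop was codon 253. It is shown in capitals with 30 bases on either side (chr5:120821278-120821340, plus strand, exon 4), above the aligned stretch of Oas1a-201, where codon 258 is in capitals (chr5:120899159-120899221, minus strand, exon 4).
Oas1b-203 coding bases 727 to 789: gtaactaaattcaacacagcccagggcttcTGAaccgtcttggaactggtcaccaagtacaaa
Oas1a-201 coding bases 742 to 804: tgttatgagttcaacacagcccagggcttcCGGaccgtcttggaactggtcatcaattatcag
These are reference sequences; the tables hold no reads, so the stop was not read from the samples. The RNA of this gene was nevertheless present on chromatin, as given below.

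Oas1a and Oas1g encode the enzymatically active OAS1 proteins of the mouse and are close copies. Their coding sequences, 1104 bases each, were identical at 1068 bases (96.7%), with an unbroken identical run of 231 bases. The 90 aligned coding bases with the most differences hold 17 of the 36, and are shown with the differing bases in capitals. They are coding bases 438 to 527 of each transcript and cross the junction of exons 2 and 3.
Oas1a-201: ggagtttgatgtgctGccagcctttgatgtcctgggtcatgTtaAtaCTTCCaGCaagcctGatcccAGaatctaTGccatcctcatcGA
Oas1g-201: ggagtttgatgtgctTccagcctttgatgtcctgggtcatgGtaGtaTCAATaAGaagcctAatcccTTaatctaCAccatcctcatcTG
Reads that lie wholly within identical stretches cannot tell the copies apart. Of all 31-base words in annotated transcripts, 68.8% of those of Oas1a and 55.1% of those of Oas1g also occurred in another gene, nearly all in the other copy. The share was 25.2% for Oas1c, 6.70% for Oas1b, 2.27% for Oas3, 1.23% for Oasl2, 0.409% for Oasl1 and 0 for Oas2. In the authors' gene table the posterior SD of the count was 0 for the other 6 members, and 7.33, 7.89 and 8.33 reads in replicates 1, 2 and 3 for both Oas1a and Oas1g. These SDs are small beside the counts of the 2 copies, which ran from 376 to 510. Since most of their 31-base words are shared, the sum of Oas1a and Oas1g is given beside the single values. Whether the reads were divided rightly between the copies was not tested.

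The 8 members differed widely in level on chromatin. Oasl2 and Oas2 were the most abundant, and together they made up 74.3%, 75.5% and 71.6% of the summed TPM of the family in replicates 1, 2 and 3. Oas1c lay far below the others. By limma, 3 members (Oasl2, Oas2 and Oas1g) were called more than 2-fold higher than the reference gene, where 15.1% of all 18411 genes tested were. One member, Oas1c, was called lower, where 52.5% of all genes were, and 4 were called neither. The family median lay 1.31, 0.50 and 1.25 above the reference on the log2(TPM + 0.1) scale in replicates 1, 2 and 3, and the median of all genes tested lay at -1.62, -1.76 and -1.71. The family counts and median leave out Oas1d, Oas1e, Oas1f and Oas1h, all 4 of which were called lower.

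**Figure D1:**
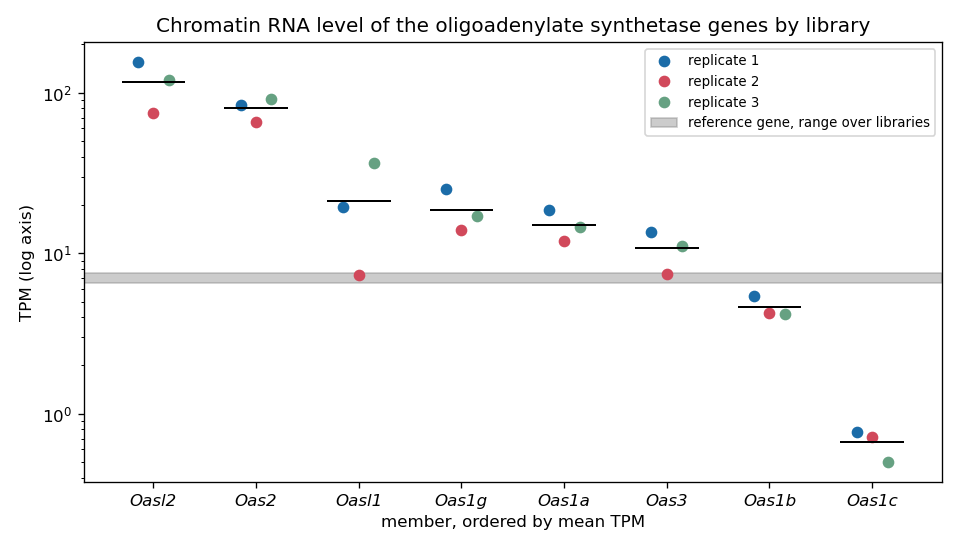
TPM on a log axis of the 8 genes in each of the 3 libraries, ordered by mean TPM (black bars), with the range of the reference gene in grey. Oasl2 and Oas2 lie above 60 TPM in every library, Oas1c lies below 1 in every library, and the points of Oasl1 are the most widely spread.

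Oas2 encodes the medium-sized enzyme with a pair of OAS units. Its level was 84.04, 65.69 and 91.19 TPM in replicates 1, 2 and 3, from 4001, 5166 and 6390 expected counts. The libraries lay close together and all far above the reference. The level stood 3.51 ± 0.14 (SE) above the reference on the log2 scale, or 11.4-fold (limma, adjusted p = 9.6e-05). Oas2 had the most counts of the family and shared no 31-base word with another gene. Its mean level in the alignment-free table was 76.4 TPM, against 80.3.

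Oas3 encodes the largest enzyme, with 3 OAS units, and is the OAS protein with the highest affinity for long double-stranded RNA. Its transcripts were at 13.51, 7.45 and 11.13 TPM, from 493, 624 and 815 counts. Replicate 2 lay close to the reference and the other two libraries above it. The mean difference of 0.58 ± 0.18 (SE) on the log2 scale did not pass the test (limma, adjusted p = 1.0). Although Oas2 and Oas3 are adjacent genes on the same strand, 3245 bases apart, Oas2 was the higher by several fold in every library.

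Oas1a was at 18.54, 11.86 and 14.55 TPM and Oas1g at 24.94, 13.93 and 17.02 TPM in replicates 1, 2 and 3. Both were lowest in replicate 2 and above the reference in every library. Oas1g passed the test narrowly, at 1.38 ± 0.16 (SE; limma, adjusted p = 0.048), and Oas1a did not, at 1.08 ± 0.14 (adjusted p = 0.39). The call of Oas1g was lost without replicate 1 (adjusted p = 0.23) and without replicate 3 (adjusted p = 0.12). In counts the order of the copies was the opposite, with 429, 444 and 510 for Oas1a and 407, 376 and 414 for Oas1g. The effective lengths that divide them in TPM were 1672, 1637 and 1652 bases for Oas1a and 1179, 1178 and 1147 for Oas1g. Summed over both copies, the level was 43.5, 25.8 and 31.6 TPM.

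Oas1b, whose full-length product confers resistance to flaviviruses in strains that have it, was at 5.45, 4.23 and 4.16 TPM, from 89, 92 and 116 counts. Every library lay just below the reference, at -0.58 ± 0.14 (SE) on the log2 scale (limma, adjusted p = 1.0). In the alignment-free table it had 268, 328 and 389 counts and 17.6, 8.30 and 13.3 TPM. Its mean TPM was thus 2.84-fold higher there, and it stood above the reference, by 0.80. Oas1b was the 1 member of 8 whose mean TPM was over 2-fold higher in the alignment-free table, where 23.5% of all 11696 genes compared were. The median of those genes was 1.38-fold, so the level of Oas1b, and on which side of the reference it lay, depended on the quantification.

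Oas1c, an OAS1 copy that lacks synthetase activity, was at 0.77, 0.72 and 0.50 TPM, from 22, 23 and 22 counts. These were low and alike in all libraries. It stood at -3.22 ± 0.24 (SE) relative to the reference (limma, adjusted p = 0.00037). Its divergent partner Oas1b, starting 121 bases away, was higher by 2.63 ± 0.22 (SD, n = 3) on the log2 scale, in 3 of 3 libraries.

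The OAS-like genes encode proteins with an OAS unit followed by ubiquitin-like domains. Oasl2, which keeps synthetase activity, was the highest of the family, at 154.4, 74.85 and 120.2 TPM from 2982, 2282 and 3203 counts. All libraries lay far above the reference, with replicate 2 the lowest. The difference was 3.99 ± 0.20 (SE), or 15.9-fold (limma, adjusted p = 0.00016). Oasl1, an inactive paralogue known to restrain translation of Irf7 mRNA, was at 19.37, 7.32 and 36.56 TPM, from 286, 173 and 654 counts. Replicate 3 was the highest by far and replicate 2 near the reference, so the mean difference of 1.32 ± 0.43 (SE) was not called (limma, adjusted p = 0.33). Without replicate 2 it was called higher, at 1.91 (adjusted p = 0.024).

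**Figure D2:**
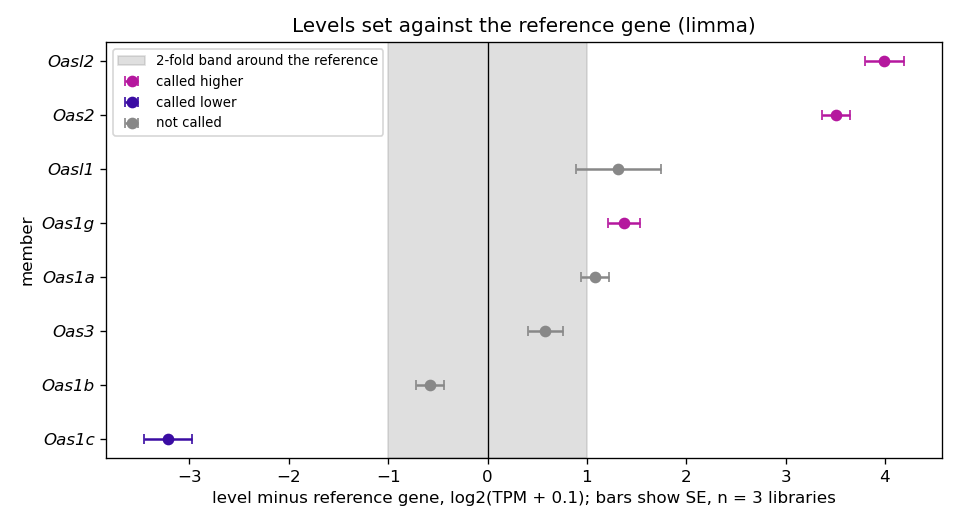
Mean level of each member minus the reference gene on the log2(TPM + 0.1) scale, with the SE from limma over 3 libraries and the 2-fold band in grey. Oasl2 (3.99), Oas2 (3.51) and Oas1g (1.38) are called higher and Oas1c (-3.22) lower; Oasl1 has the widest bar.

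In order of mean TPM the members ran Oasl2 (116.5 ± 39.9, SD, n = 3), Oas2 (80.3 ± 13.2), Oasl1 (21.1 ± 14.7), Oas1g (18.6 ± 5.68), Oas1a (14.98 ± 3.36), Oas3 (10.7 ± 3.05), Oas1b (4.61 ± 0.73) and Oas1c (0.663 ± 0.144). Of the 7 neighbouring pairs in this order, 6 kept their order in every library. The exception was Oasl1 and Oas1g, where Oasl1 was the lower in replicates 1 and 2 and the higher in replicate 3. An exact two-sided sign-flip permutation test over 3 libraries cannot give a p below 0.25, and it gave 0.25 for the 6 pairs (0.29 after Benjamini-Hochberg adjustment over 7) and 1.0 for Oasl1 and Oas1g. In the alignment-free table Oas1g ranked above Oasl1 and Oas1b above Oas3, with the other ranks as before.

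How much the libraries differed was measured on log2 CPM, counts scaled for depth with TMM factors, which does not divide by a transcript length. All 8 members passed the filter on low counts, as did 12931 genes in all. Oasl1 stood apart: its log2 CPM was 4.41, 3.31 and 5.26 in replicates 1, 2 and 3. That is 2.15-fold more in replicate 1 than in replicate 2 and 3.87-fold more in replicate 3 than in replicate 2. Its SD of 0.98 was higher than that of 99.4% of the genes that passed the filter. Oasl1 was the 1 member of 8 more than 2-fold above replicate 2 in replicate 1, where 5.13% of all genes were. It was also the 1 member of 8 in replicate 3, where 2.2% were. These are differences between single libraries, with no test.

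The next most variable member was Oasl2, with log2 CPM of 7.79, 7.01 and 7.55 (SD 0.40). The 6 OAS genes proper had SDs between 0.17 (Oas1a) and 0.25 (Oas1g). Oas2 was at 8.21, 8.19 and 8.54 and Oas1c at 0.81, 0.51 and 0.49. The median SD of the 8 members was 0.22, against 0.27 over all genes that passed the filter, but on the log2(TPM + 0.1) scale it was 0.37 against 0.31. On log2 CPM it was 0.46 over 32 other interferon-stimulated genes. In that list 13 of 32 genes were more than 2-fold higher in replicate 1 than in replicate 2. The widest ranges there included Cxcl10, an interferon-inducible chemokine, at 82.3, 10.2 and 37.8 TPM, and Ifit1, an inhibitor of viral translation, at 12.98, 1.94 and 9.61 TPM (both singled out after their values were seen). That the OAS members differ from this list in spread was not tested.

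Most members were nevertheless lowest in the same library. On log2 CPM, replicate 2 was the lowest of the 3 libraries for 7 of 8 members, all but Oas1c. It was the lowest for 38.3% of all genes and for 23 of the 32 other interferon-stimulated genes. It was the lowest for 5 of the 12 interferon pathway genes that passed the filter and for 0 of 8 macrophage markers, whose median deviation in replicate 2 was 0.18 above their own means. Of the 7 members, Oas2 and Oas3 were nearly alike in replicates 1 and 2, being 1.014-fold and 1.034-fold higher in replicate 1. Which library was highest on log2 CPM varied: replicate 1 for Oas1a, Oas1c, Oas1g and Oasl2, and replicate 3 for Oas1b, Oas2, Oas3 and Oasl1. In TPM, Oas1b (5.45, 4.23 and 4.16) was lowest in replicate 3 rather than replicate 2. Oas1b and Oas3 (13.51, 7.45 and 11.13) were highest in replicate 1 on that scale. Ifnb1, the gene of interferon β, was at 6.87, 0.70 and 3.74 TPM, also lowest in replicate 2. Replicate 2 was made from the least RNA, 250 ng, and the part of the input in these differences was not tested. In such bulk samples fewer responding cells and less RNA per cell cannot be told apart. On the TPM scale 2 members rather than 1 passed 2-fold between replicates 1 and 2, Oasl2 joining Oasl1. On that scale 1601 of all 12931 genes were over 2-fold higher in replicate 1 and 225 in replicate 2.

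**Figure D3:**
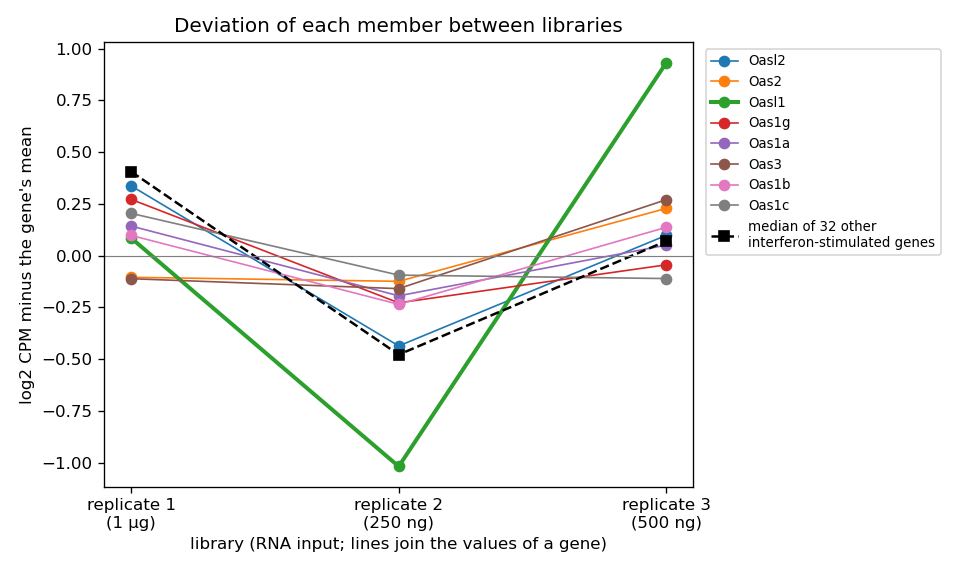
Deviation of log2 CPM from the gene's own mean in each library for the 8 members, with the median deviation of 32 other interferon-stimulated genes as a dashed line; the lines only join the values of a gene. Oasl1 spans from -1.02 in replicate 2 to 0.93 in replicate 3, while the other members stay between -0.44 and 0.34.

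The genes whose deviations across the 3 libraries were closest to the median of the members were Ubn2, Crebrf, Ifngr1, Pim1 and Usmg5, with Euclidean distances from 0.020 to 0.024 among 5176 protein-coding genes of at least 5 TPM. Ifngr1 encodes a subunit of the interferon γ receptor and was at 103.5, 62.8 and 81.6 TPM. Pim1 encodes a kinase induced by cytokines and was at 268, 185.5 and 234.7 TPM. This likeness rests on 3 libraries.

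The tables also divide each gene among its annotated transcripts. Oas2 was assigned almost wholly to protein-coding models, with 96.6% ± 0.8 (SD, n = 3) of its TPM, and Oas1a has a single model. In contrast, models with a retained intron held 62.0% ± 2.9 of the TPM of Oasl2, 67.3% ± 6.3 of Oasl1, 30.7% ± 10.5 of Oas3 and 29.3% ± 8.2 of Oas1g. A model annotated for nonsense-mediated decay, the pathway that degrades mRNA with an early stop, held a further 45.8% ± 15.4 of Oas1g and 27.7% ± 1.7 of Oasl2. Thus 3 members, Oas1g, Oasl1 and Oasl2, had over 50% of their TPM in models of a retained intron, nonsense-mediated decay or a processed transcript. How many of all genes pass 50% was not counted, so whether these members are unusual in this was not tested. The coding model Oas1g-201 held 24.9% ± 7.2.

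These shares depend on the unit, since short models gain weight in TPM. Oasl1-204, the retained-intron model of Oasl1, is 800 bases long against 2181 for the coding Oasl1-202. By expected count rather than TPM, retained-intron models held 39.8% ± 9.0 of Oasl1 and 44.2% ± 6.2 of Oasl2, and protein-coding models 58.8% ± 10.2 and 18.4% ± 3.9. For Oas1b the pseudogene model Oas1b-203 held 89.3% ± 5.4 of the counts, and Oas1b-201, annotated as protein coding, was listed at 0 in every library. In the alignment-free table retained-intron models held 64.3% ± 5.5 of the TPM of Oasl2 and 54.1% ± 8.8 of Oasl1. For Oas1g they held 51.2% ± 5.8 there, and 13.6% ± 4.1 by expected count in the alignment-based table, while its coding model held 10.7% ± 1.0 of the alignment-free TPM. The processed-transcript model of Oas1b held 50.5% ± 6.5 there, against 35.7% ± 13.7, so that 4 members rather than 3 passed 50%. Effective length, which follows the isoform assignment, also differed between libraries. That of Oas3 was 2637 bases in replicate 1 and 3659 in replicate 2, and its TPM differed 1.81-fold between them while its CPM differed 1.03-fold. Not all of this gap goes with length, since Oas2, with effective lengths of 3440 and 3436 bases, differed 1.28-fold in TPM and 1.014-fold in CPM. The tables hold annotated transcripts only, so reads of introns outside these models were not measured.

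**Figure D4:**
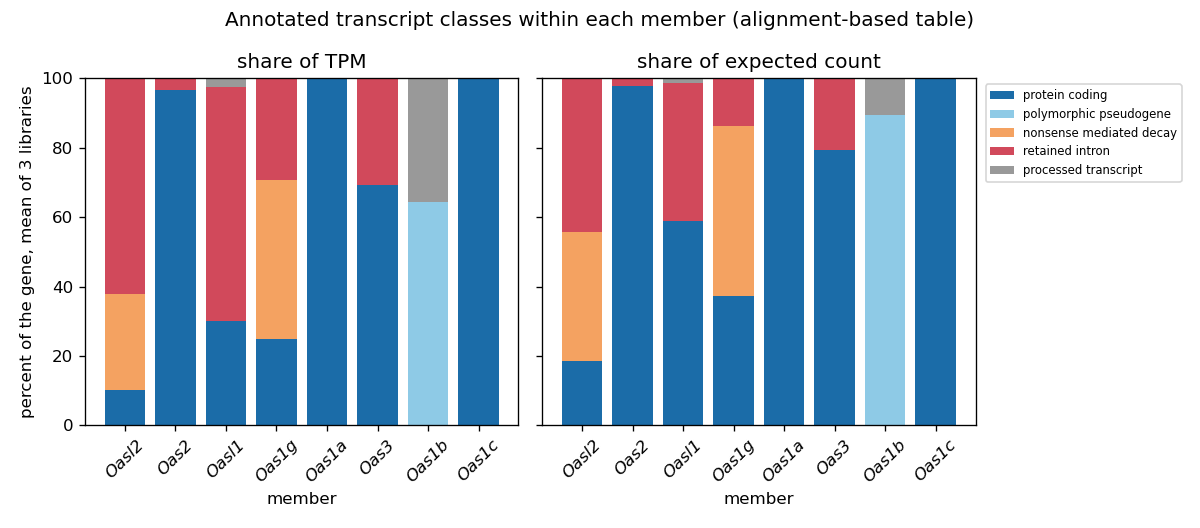
Stacked bars of the mean share of each annotated transcript class within each member, in percent of TPM (left) and of expected count (right), over 3 libraries. Oas2, Oas1a and Oas1c consist of protein-coding models, apart from 3.41% of the TPM of Oas2, while retained-intron models make up 62.0% of the TPM of Oasl2 and 44.2% of its count.

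Of the remaining mouse OAS1 copies, Oas1d, Oas1e and Oas1f were near or below detection, and Oas1h was low but detected. In the alignment-based table Oas1d, Oas1e and Oas1f were listed at 0 in every library. A count of 0 there allows up to 2.36e-05%, 1.64e-05% and 1.66e-05% of the counts in replicates 1, 2 and 3 (3 counts of the total). In the alignment-free table each of them had at most 2.29 counts in any library. Oas1h was at 0.97, 0.93 and 1.35 TPM, from 20, 31 and 42 counts, somewhat above Oas1c. It was called lower than the reference (limma, adjusted p = 0.00096). In the alignment-free table it was at 2.98, 1.04 and 2.42 TPM. All 4 were called lower, but the 3 at 0 depend on the pseudocount, and with 0.01 in place of 0.1 Oas1h alone was called. Of all 19 genes within 50 kb of a member that are not members themselves, 0 were called higher by limma (0 at an unadjusted p under 0.05), 6 were called lower, 1 was neither and 12 were too low to be tested. Of all genes tested 15.1% were called higher and 52.5% lower. Among those called lower, Oas1d, Oas1e and Oas1f were tested only because listed genes were kept at any level. A low copy and a copy listed at 0 thus stood beside members at higher levels, with Oas1h 2636 bases from Oas1g and Oas1d 7015 bases from Oas1a.

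Among the other genes near the members, Gm43068, a transcript of unsettled status inside the span of Oas2 on the opposite strand, was at 6.68, 2.47 and 5.26 TPM. It overlaps no exon of Oas2. Gm13822, antisense to Oasl1, was at 0.52, 0.39 and 0 TPM, and Gm43069, antisense to Oas1c, at 0, 0.07 and 0.15 TPM; both overlap exons, and no source used here states how strand was counted. The protein-coding gene 2210016L21Rik was at 0.743 ± 0.144 TPM (SD, n = 3) and was called lower. Dtx1 and Gm9936 stayed at or below 0.06 TPM in every library, and Rph3a, 4930519G04Rik, 1810017P11Rik, Gm13823, Gm22907 and Mir6240 were listed at 0.

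Of the genes listed for the handling of 2-5A, 3 are described here. The 2-5A phosphodiesterase gene Pde12 (2.65 ± 0.93 TPM, SD, n = 3) and Akap7, a member of the phosphodiesterase family with 2-5A-degrading activity (12.2 ± 4.08), were called neither, as was Abce1 (5.73 ± 0.64), which encodes a ribosome recycling factor. Their adjusted p-values from limma were 0.081 for Pde12, which lay at -1.41 ± 0.21 (SE) on the log2 scale, and 1.0 for the other two.

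Among all 18411 genes tested, 15.1% were called higher and 52.5% lower. Of 8 other genes listed for the sensing and handling of double-stranded RNA, Mavs and Adar among them, 5 were called higher and 2 lower. The highest was Ifih1, which encodes MDA5, at 106, 24.8 and 80.9 TPM, and the lowest was Tlr3, the endosomal receptor, at 1.41, 0.74 and 0.83 TPM, which was called lower. Of 13 genes of the interferon pathway, 10 were called higher and 1 lower, from Irf1, a transcription factor, at 788, 445.7 and 432.1 TPM to Socs1, a feedback inhibitor, at 1.10, 0.96 and 0.95 TPM. Stat2 and Irf9, which encode factors that bind the response element, were at 67.5 ± 5.3 and 20.7 ± 4.1 TPM (SD, n = 3), both called higher by limma. Of the 32 other interferon-stimulated genes, 12 were called higher and 4 lower. They ranged from Parp14, an ADP-ribosyltransferase, at 239 ± 97.9 TPM to Igtp, an immunity-related GTPase, at 0.66 ± 0.11. The median of that list lay 1.05 above the reference on the log2 scale, that of the OAS family 1.199 above it, and that of all genes tested at -1.74.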

How the data were processed

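The 3 libraries of 1 group were analysed. Per the deposited notes and file headers, values refer to mm10 and annotation release M21. The authors deposited expected counts, TPM and FPKM per gene and per transcript from alignments to the transcriptome (alignment-based), and estimated counts and TPM per transcript without alignment (alignment-free). Posterior SDs of counts were also deposited by the authors. The labels and headers name no program. Expected counts were rounded before count-based steps. tRNA, spike-in and phiX entries were left out, 1.26%, 0.223% and 0.2% of the counts in replicates 1, 2 and 3. Floors cover counting error only.

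Levels were log2(TPM + 0.1) minus the reference gene's, the median of its library over protein-coding genes (mitochondrial ones excluded) averaging 1 TPM or more. Differences of genes near 0 are understated on this scale. Genes averaging 0.1 TPM or more, and all listed genes, were fitted together: limma 3.58.1 (treat, 2-fold band, two-sided, Benjamini-Hochberg) tested the level, tested on simulated data first. Log2 CPM came from edgeR 4.0.16 (TMM, filterByExpr with a minimum count of 10, prior count 2). DESeq2 1.42.0 size factors were an alternative. Coding sequences were taken from the M21 transcripts and aligned globally with Biopython 1.88.

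The members and gene lists were chosen with earlier results of these data known. Named genes are all members, every gene of the 2-5A and other OAS lists, the highest and lowest gene of each other list, every gene within 50 kb, and the 5 genes most like the members. Some genes that this rule names are not reported here. Cell marker lists covered macrophages, neutrophils, T, B, NK and dendritic cells, erythroid cells, fibroblasts and epithelium.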

Additional observations from a re-analysis of the deposited data

How the results depend on the processing

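The number of members called stayed at 3 to 5 with a pseudocount of 1 or 0.01, the alignment-free table, FPKM, a 4-fold band, no filter on low values, and without 1 replicate (lowest 3, highest 5). In these settings 1467 (4-fold band) to 4681 (alignment-free table) of all genes were called higher. Those called lower ran from 6695 (4-fold band, 18411 genes tested) to 47196 (no filter on low values, all 55536 genes tested). Settings of the pseudocount, the band and the reference tested the same 18411 genes as the main fit. Those of the filter, the table, the unit and the replicates changed the number tested, so their counts cannot be read as shares of 18411. The number of members called was 8 with no band (6 higher, 2 lower), where 4299 of all genes were higher and 12017 lower. It was 2 when the fit kept only genes averaging 1 TPM or more, where 2705 of all genes were higher and 2701 lower. That filter removes Oas1c, and Oas1g lost its call there (limma, adjusted p = 0.063). With a reference drawn from genes averaging 5 TPM or more, 2 members were higher and 2 lower, where 1346 and 12686 of all genes were. The family median fell there to 0.0076 (that of all genes to -2.93). Oas1a (-0.11) and Oas3 (-0.61) changed sign without being called. Oas1b changed sign to 0.80 in the alignment-free table, uncalled. Oas2 and Oasl2 were called higher in every alternative. Oas1g lost its call in 6 alternatives, with a pseudocount of 1 (adjusted p = 0.10) and with the reference at 5 TPM (adjusted p = 1.0) among them.

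Without 1 replicate the family median ranged from 0.92 to 1.38. Members over 2-fold apart between replicates 1 and 2 numbered 2 on the log2(TPM + 0.1) scale. There 1601 of all 12931 genes were higher in replicate 1 and 225 in replicate 2. With a fold of 1.5 on log2 CPM the members also numbered 2. At that fold 2142 of all 12931 genes were higher in replicate 1 and 1959 in replicate 2. The median spread of the members moved from 0.22 to 0.26 with no TMM factor, 0.37 on the log2(TPM + 0.1) scale (all genes 0.31) and 0.18 with alignment-free counts (all genes 0.26). Without 1 replicate it ranged from 0.22 to 0.26, where all genes lay at 0.20 without replicate 1, 0.19 without replicate 2 and 0.28 without replicate 3, so that without replicate 1 or without replicate 2 the members were the more variable. The alignment-free order was compared after seeing the data. Groups of 3 were too small for the test for outlying samples. No paired analysis was possible because there is 1 group.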
